A study of Xenopus laevis with 9 samples.

Results

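The mRNAs described here encode proteins that cells place on their surface or secrete to their surroundings: growth factors, their receptors, semaphorins, plexins, adhesion and matrix proteins, metalloproteases and G protein-coupled receptors. They were chosen by their symbols, which had to begin with one of a fixed set of family prefixes (sema, itga, pcdh, lamb, fgf, bmp, tgfb, fzd, gpr, plxn, adam and others) and to be typed as mRNA. Symbols came from the 1999 entries in hand of the study's annotated RNA list of 19752, of which 1901 were mRNAs. The rule found 30 genes among the 44478 of the count table, and the rule itself uses no measured value, although the families were picked with earlier results of these data known. The prefixes for collagens, classical cadherins, Wnt ligands, Notch, ephrins and their receptors, and adhesion G protein-coupled receptors found no gene among those entries. The genes lie on chromosomes 3L (21), 2S (6) and 1L (3). Among the 30 are 2 genes, tgfbrap1.S and fgfr1op2.L, that were taken in by their prefix alone and are not named for a surface or secreted protein.

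RNA was sequenced from undiluted egg extract of the frog *Xenopus laevis*, a cytoplasm preparation from eggs arrested in metaphase. The extract was taken before filtration (input, time 0) and from the liquid that had passed a membrane with 30 nm pores at an early time under low pressure (T1) and at a late time under high pressure (T2). Each condition had 3 biological replicates, which gives 9 libraries. The paper counts 3 biologically independent samples for these 9 experiments, so conditions shared extracts. The main fit does not pair them. The labels name no genotype, strain or added agent and set the conditions apart as input, low pressure or high pressure and by time. Pressure and time changed together and cannot be told apart. The question the design puts to each mRNA is whether it passed the pores early, late or not at all.

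Signalling and adhesion between cells rest on a small number of protein families. Secreted ligands such as fibroblast growth factors and bone morphogenetic proteins bind receptor kinases, semaphorins bind plexins to steer cell movement and axon growth, integrins and protocadherins hold cells to matrix and to each other, and metalloproteases of the ADAM and ADAMTS families trim ligands and matrix. A frog egg stores maternal mRNAs for such proteins for use in the embryo, and mRNAs for surface and secreted proteins are translated at the endoplasmic reticulum.

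Gene counts summed to 65503682 to 90000652 reads a library in the input, 23509338 to 37265313 at T1 and 60330615 to 93451602 at T2. Reads were found on 22149 to 22565 genes in the input, 16300 to 17651 at T1 and 19308 to 20331 at T2. T1 replicate 3 had the fewest reads, the fewest genes and the most unmapped reads (20.1% of all reads, against 7.23% to 7.71% in the input). Levels below are in CPM, the reads of a gene scaled to the size of its library, here on edgeR's TMM scale, on which 1 read at T1 equals 0.0275, 0.0285 and 0.0535 CPM in replicates 1, 2 and 3. CPM is a share of the sequenced RNA, so a lower value can stand for less of that mRNA or for more of others. Egg and oocyte markers were present in every input library, for example cpeb1.L, a regulator of maternal mRNA translation, at 540, 605 and 490 CPM. Of the 10 egg markers, 2 rose at T1 relative to the input (npm2.L and zp4.L, log2 fold changes of 2.13 and 1.92), against 6.44% of all genes tested. 1 of them, gdf9.L, fell, against 5.08%. These calls are at an adjusted p under 0.05 by edgeR's quasi-likelihood test.

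In the early filtrate these mRNAs were on balance fitted below the input, but unevenly so between replicates. Of the 29 kept by edgeR's expression filter, 2 fell at T1 relative to the input at an adjusted p under 0.05 by edgeR's quasi-likelihood test, sema6d.L and adamtsl5.L, and 0 rose. Over all 20148 genes tested, 5.08% fell and 6.44% rose, a balance that turned with library size alone as the scaling (6.06% fell and 5.28% rose) and in a fit of the T1 and input libraries alone (11.4% fell and 6.44% rose), and also without T1 replicate 1 (11.5% and 9.88%), T1 replicate 3 (7.4995% and 7.3953%) or T2 replicate 3 (7.51% and 6.82%). The fitted log2 fold change was below 0 for 22 of the 29, against 52% of all genes, and its median was -1.32, against -0.09 for all genes. In 12 of the 29 every T1 library lay below every input library, which was so for 27.8% of all genes. In 0 did every T1 library lie above (15.7% of all genes). Among the 12, gpr151.L had only 1 read in input replicate 2 (0.0135 CPM), under the level of 1 read at T1. At an unadjusted p under 0.05 there were 10 of the 29, against 32.4% of all genes. No more than 3 reads were found in any T1 library for 8 of the 29, against 16% of all genes. With only the T1 and input libraries in the fit 8 of the 29 fell, adding adamts17.L, adam28.1.L, bmpr1b.L, fgfr1op2.L, plxnc1.L and sema3d.L. By DESeq2 6 fell, adding adamts17.L, adam28.1.L, bmpr1b.L and plxnb2.L, where 13.4% of all genes fell. The number was 1 (sema6d.L) without any single input replicate and without T2 replicate 1 or 2. Fewer of all genes fell there too: 0.66%, 0.75% and 1.06% without input replicates 1, 2 and 3. The shares were 2.75% and 3.74% without T2 replicates 1 and 2. Without T1 replicate 1 it was 4, adding plxnb2.L and sema4b.L, where 11.5% of all genes fell. The median of the set was then -2.61, and that of all genes -0.34. In 9 of the 29, sema6d.L and adamtsl5.L among them, no T1 library reached the filter's cutoff of 0.153 CPM by library size. These entered the test through input or T2 libraries alone, so their entry rested on the libraries that T1 is compared with. All 9 are among the 12 with every T1 library below every input library. The 30th gene, gpr182.S, was not tested.

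**Figure D1:**
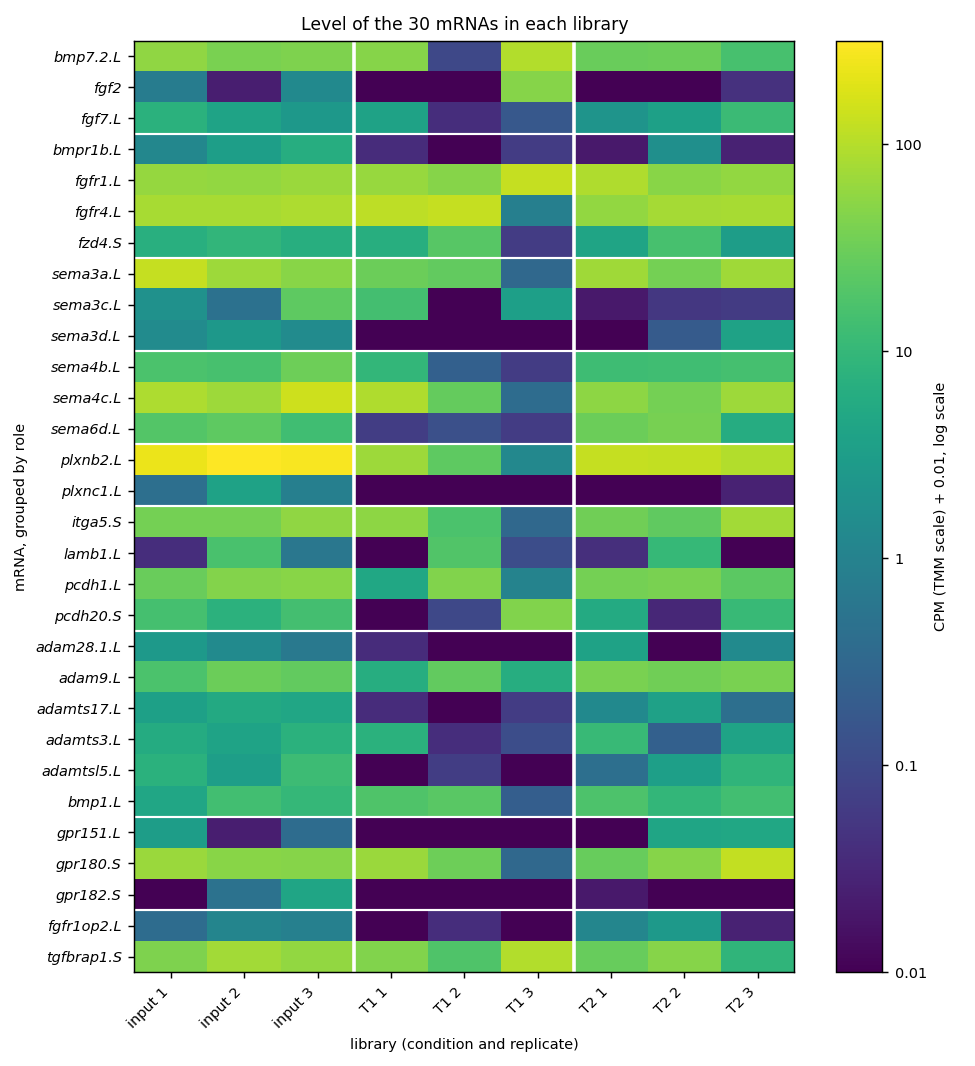
Level of each of the 30 mRNAs (one line each, grouped by role) in the 3 input, 3 T1 and 3 T2 libraries, as CPM on the TMM scale plus 0.01 on a log colour scale. Dark cells mark levels near 0: sema6d.L is dark in all 3 T1 libraries. The cell of fgfr4.L in T1 replicate 3, at 0.857 CPM, is of middle colour and darker than its other cells. Only in T1 replicate 3 is fgf2 bright.

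The semaphorins are guidance proteins, secreted in class 3 and anchored in the membrane in classes 4 and 6. The mRNA of sema6d.L (XBXL10_1g13210), a transmembrane semaphorin, had the lowest adjusted p of the set in the early filtrate. It had 20.2, 24.4 and 13.2 CPM in the input, 0.0551, 0.114 and 0.0535 CPM at T1, and 30.8, 37.1 and 6.15 CPM at T2. All T1 libraries lay far below all others, with 2, 4 and 1 reads against 1371, 1808 and 1246 in the input, while the T2 and input libraries overlapped. Relative to the input its log2 fold change at T1 was -7.96 (standard error 1.31, adjusted p = 0.00595 by edgeR). On the ratio of summed reads it was 271-fold lower, with a 95% exact interval of 131 to 674 that covers counting error only. Here and below, summed reads are divided by the total reads on genes of their condition before such a ratio is taken. This call held under all 17 alternative settings, with adjusted p-values up to 0.0389. The gene lies on chromosome 3L from 108972656 to 109019705 in assembly *X. laevis* v10.1, and no other annotated gene overlaps it.

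The other membrane-bound semaphorins were also scarce in T1 libraries, though not in all 3. The mRNA of sema4b.L had 17.1, 15.6 and 31.7 CPM in the input, 9.48, 0.228 and 0.0535 CPM at T1, and 12.4, 13.0 and 14.7 CPM at T2. Its T1 libraries and its T2 libraries all lay below its input libraries, with T1 replicates 2 and 3 near 0. Its log2 fold change at T1 was -2.72 (standard error 1.58, adjusted p = 0.261 by edgeR). Omitting T1 replicate 1, its highest T1 library, made it -7.18 (adjusted p = 0.00684 by edgeR), where 11.5% of all genes fell. The mRNA of sema4c.L had 87.4, 68.8 and 141 CPM in the input, 90.9, 27.5 and 0.375 CPM at T1, and 55.3, 35.9 and 69.8 CPM at T2. T1 replicate 1 sat within the input range and T1 replicate 3 near 0, so the conditions overlapped.

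Among the secreted semaphorins, sema3a.L, a repellent of growing axons, had 126, 70.2 and 50.4 CPM in the input, 30.8, 26.6 and 0.321 CPM at T1, and 70.9, 36.1 and 73.2 CPM at T2. Every T1 library was below every input and every T2 library, with a log2 fold change against the input of -2.09 (standard error 1.06, adjusted p = 0.197 by edgeR). The mRNA of sema3d.L had 1.499, 2.53 and 1.45 CPM in the input, no read in any T1 library, and 0, 0.184 and 3.91 CPM at T2. Against a floor of 3 reads over the T1 group it lay at least 60.8-fold below the input (adjusted p = 0.0951 by edgeR). The mRNA of sema3c.L differed from both: it had 1.88, 0.458 and 24.0 CPM in the input, 14.1, 0 and 3.43 CPM at T1, and 0.0099, 0.0432 and 0.05 CPM at T2. It was near 0 in every late filtrate, with 8 reads in all, while its input and T1 libraries overlapped widely.

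The plexins are the receptors that semaphorins bind, and both plexin mRNAs were below the input in each filtrate. The mRNA of plxnb2.L (XBXL10_1g12713), a receptor for class 4 semaphorins, had 236, 308 and 283 CPM in the input, 68.5, 24.6 and 1.23 CPM at T1, and 127, 122 and 95.3 CPM at T2. The 3 conditions did not overlap: every T1 library was below every T2 library, and every T2 library below every input library. The log2 fold changes relative to the input were -3.13 at T1 (standard error 0.93, adjusted p = 0.0535) and -1.27 at T2 (standard error 0.87, adjusted p = 1.00), so neither passed edgeR's test. At T1 it passed without T1 replicate 1 (0.0205) or 3 (0.00635), and with all libraries under median-of-ratios scaling (0.0465), a filter of at least 1 read (0.0318) and DESeq2 (0.00196). The mRNA of plxnc1.L, a receptor for class 7 semaphorins, had 0.426, 3.87 and 0.882 CPM in the input, no read in any T1 library and 0, 0 and 0.0167 CPM at T2. The T2 value is a single read. At T1 it lay at least 56.9-fold below the input (adjusted p = 0.0618 by edgeR). It was 1 of the 9 genes with no T1 library at the filter's cutoff. It alone passed the filter through its 3 input libraries only, so it could differ only in that direction.

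**Figure D2:**
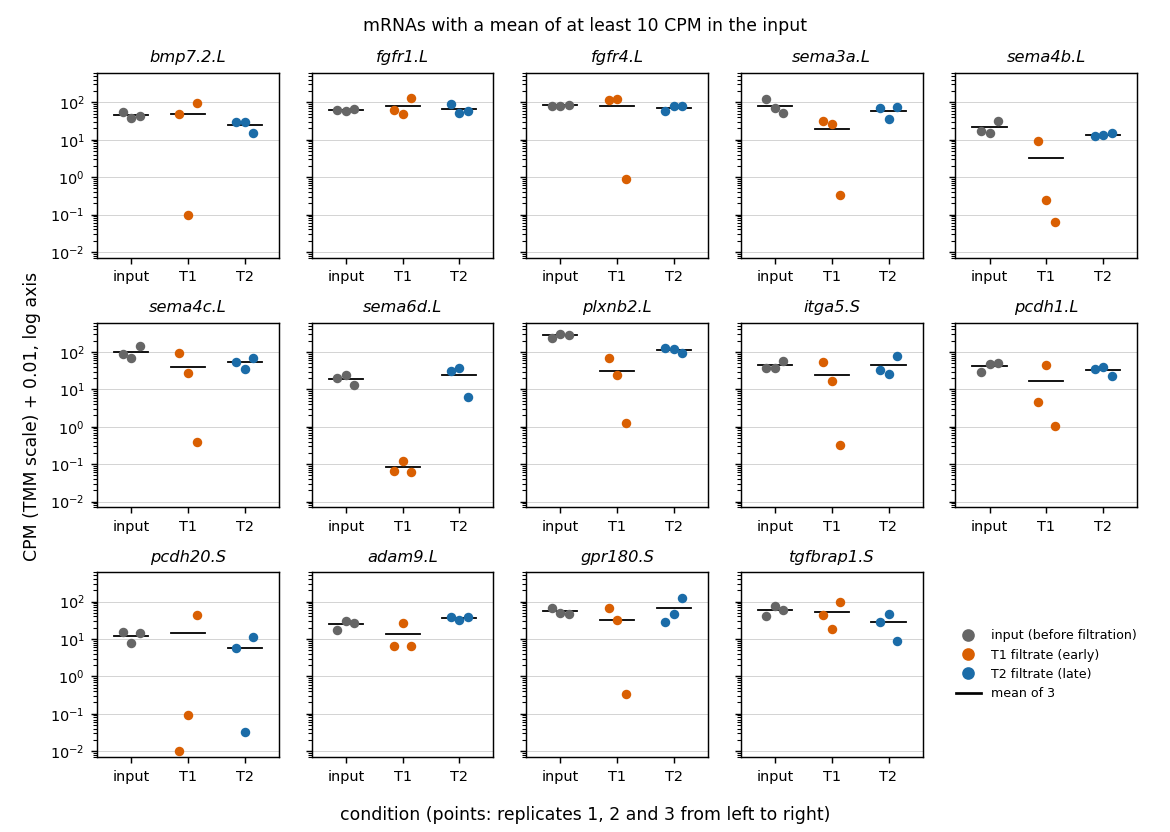
CPM on the TMM scale plus 0.01, on a log axis, for the 14 mRNAs with a mean of at least 10 CPM in the input, by condition (points, replicates 1 to 3 from left to right; line, mean of 3). Input and T2 points lie close together in most panels, while T1 points spread widely. T1 replicate 3 is the lowest T1 point for fgfr4.L, gpr180.S, itga5.S, sema3a.L, sema4c.L, plxnb2.L, sema4b.L, pcdh1.L and sema6d.L.

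Growth factor mRNAs differed widely between the T1 libraries. Of the 3, 0 passed edgeR's test at T1 (11.5% of all genes tested), with 0 at an unadjusted p under 0.05 (32.4%). At these shares 0 of 3 does not set the group apart. The mRNA of bmp7.2.L, a bone morphogenetic protein, had 55.5, 38.7 and 42.9 CPM in the input, 49.0, 0.0854 and 94.2 CPM at T1, and 29.5, 30.4 and 15.4 CPM at T2. It was within the input range in T1 replicate 1, above it in T1 replicate 3, and near 0, with 3 reads, in T1 replicate 2. Its T2 libraries all lay below its input libraries. The mRNA of fgf2, a fibroblast growth factor, had 0.779, 0.0135 and 1.38 CPM in the input, 0, 0 and 47.5 CPM at T1, and 0, 0 and 0.0333 CPM at T2. A single library, T1 replicate 3, thus held 888 of its reads, against 184 in the 3 input libraries together. This gene overlaps nudt6.L, and fgf7.L and itga5.S also overlap another annotated gene. The libraries were prepared to keep strand, but which strand setting was counted is not given in the sources used here, so reads of overlapping genes may not be told apart. The mRNA of fgf7.L, which acts on epithelial cells, had 7.36, 4.03 and 2.53 CPM in the input, 3.97, 0.0285 and 0.161 CPM at T1, and 2.17, 3.67 and 11.5 CPM at T2.

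Of the 4 receptor mRNAs, 0 passed edgeR's test at T1 (11.5% of all genes tested), with 1 (bmpr1b.L) at an unadjusted p under 0.05 (32.4%). These counts do not set the group apart. The mRNA of fgfr1.L, a receptor tyrosine kinase for fibroblast growth factors, had 61.4, 58.6 and 67.6 CPM in the input, 63.7, 47.5 and 127 CPM at T1, and 92.4, 50.9 and 59.1 CPM at T2. Its T1 and input libraries overlapped, and the T1 log2 fold change was 0.34 (standard error 0.44, the smallest of the 29, adjusted p = 0.650 by edgeR). Its relative fgfr4.L had 81.9, 80.7 and 87.0 CPM in the input, 115, 125 and 0.857 CPM at T1, and 57.9, 78.9 and 80.4 CPM at T2. T1 replicates 1 and 2 were above every input library and T1 replicate 3 was far below, with 16 reads, so that the fitted change was -0.05 with a standard error of 1.02. The mRNA of the Wnt receptor fzd4.S had 6.98, 9.32 and 6.62 CPM in the input, 6.61, 21.3 and 0.0535 CPM at T1, and 4.16, 15.6 and 3.18 CPM at T2. At T1 it was above every input library in replicate 2, just under the lowest of them in replicate 1, and at 1 read in replicate 3. The mRNA of bmpr1b.L, a type I receptor for bone morphogenetic proteins, had 1.19, 3.28 and 6.23 CPM in the input, 0.0275, 0 and 0.0535 CPM at T1, and 0.0099, 1.76 and 0.0167 CPM at T2. It was below the input in every T1 library, by 195-fold on summed reads (95% exact interval 53.8 to 1611, from 2 reads at T1; adjusted p = 0.106 by edgeR), and it was recovered in T2 replicate 2 alone.

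Of the 4 adhesion and matrix mRNAs, 0 passed edgeR's test at T1 (11.5% of all genes tested), with 0 at an unadjusted p under 0.05 (32.4%). At these shares 0 of 4 does not set the group apart. The T1 libraries in which they were low were not the same for all 4. The mRNA of itga5.S, the integrin subunit of the fibronectin receptor, had 36.8, 36.6 and 56.8 CPM in the input, 53.9, 17.1 and 0.321 CPM at T1, and 33.0, 25.6 and 75.8 CPM at T2. The protocadherin mRNA pcdh1.L had 29.6, 46.3 and 49.4 CPM in the input, 4.71, 44.5 and 1.02 CPM at T1, and 35.6, 39.6 and 23.1 CPM at T2. It held its input level in T1 replicate 2 only. With all libraries its log2 fold change was -1.32 (adjusted p = 0.442 by edgeR). Without T1 replicate 2, its highest T1 library, it was -3.89 (adjusted p = 0.0214 by edgeR), where 6.91% of all genes fell. No other setting called it, so this call rests on the omission of that library. A second protocadherin mRNA, pcdh20.S, had 14.9, 7.79 and 14.4 CPM in the input, 0, 0.0854 and 43.7 CPM at T1, and 5.64, 0.0216 and 11.0 CPM at T2. T1 replicate 3 was its highest library of all 9, and its other T1 libraries were at or near 0. The mRNA of lamb1.L, a laminin chain of basement membranes, had 0.0294, 16.3 and 0.606 CPM in the input, 0, 18.7 and 0.107 CPM at T1, and 0.0298, 10.2 and 0 CPM at T2. It was high in replicate 2 of every condition and at or under 0.606 CPM in the other libraries. Whether equal numbers mark the same extract is not given in the labels.

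The metalloprotease group held the second mRNA that passed the test. The mRNA of adamtsl5.L (XBXL10_1g13282; chromosome 3L, 113347148 to 113380887), an ADAMTS-like matrix protein that lacks the protease domain, had 7.51, 3.38 and 12.1 CPM in the input, 0, 0.0569 and 0 CPM at T1, and 0.427, 3.44 and 8.78 CPM at T2. With 2 reads in the T1 libraries together, its summed reads, scaled to library size, lay 406-fold below the input (95% exact interval 112 to 3356). Its log2 fold change was -8.41 (standard error 2.34, adjusted p = 0.0436 by edgeR). The call was lost without input replicate 1, 2 or 3 (adjusted p = 0.132, 0.115 and 0.129), without T1 replicate 3 (0.0532) and without T2 replicate 1 or 2 (0.0533 and 0.0552). It was also lost with a filter of at least 1 read (0.0508) and with the replicate number as a block (0.0826), and it was made in 9 of 17 alternative settings. Its relative adamts17.L, a secreted metalloprotease, had 3.60, 5.46 and 4.53 CPM in the input, 0.0275, 0 and 0.0535 CPM at T1, and 1.35, 3.72 and 0.433 CPM at T2. Its summed reads, scaled to library size, were 230-fold lower at T1 than before filtration (95% exact interval 63.6 to 1904, from 2 reads at T1, adjusted p = 0.0514 by edgeR). It passed without T2 replicate 3 (0.0433), by library size alone (0.0482), with a mean of at least 1 CPM as the filter (0.0454), in a fit of the T1 and input libraries alone (0.044) and by DESeq2 (3.5e-05).

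The other metalloproteases did not share this loss in all 3 T1 libraries, with the exception of adam28.1.L, an ADAM family gene. It had 2.73, 1.42 and 0.659 CPM in the input, 0.0275, 0 and 0 CPM at T1, and 3.97, 0 and 1.43 CPM at T2, a 151-fold lower sum at T1 (95% exact interval 26.9 to 5986, from 1 read; adjusted p = 0.111 by edgeR). The mRNA of adam9.L, a membrane-bound protease that sheds cell-surface proteins, had 17.04, 30.6 and 26.0 CPM in the input, 6.42, 26.6 and 6.48 CPM at T1, and 39.3, 32.9 and 39.3 CPM at T2. It was the 1 mRNA of the set with every T2 library above every input library (14.1% of all genes tested). Its fitted log2 fold change at T2 was 0.60 (standard error 0.75, adjusted p = 1.00 by edgeR). The mRNA of bmp1.L, which despite its name encodes a protease that processes procollagen and the BMP antagonist chordin, had 4.63, 13.7 and 9.91 CPM in the input, 18.3, 22.4 and 0.214 CPM at T1, and 17.5, 9.46 and 13.8 CPM at T2. The mRNA of adamts3.L, a procollagen-processing protease, had 5.95, 4.08 and 7.33 CPM in the input, 7.44, 0.0285 and 0.107 CPM at T1, and 10.7, 0.227 and 4.11 CPM at T2.

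The genes named as G protein-coupled receptors behaved in 3 ways. The mRNA of gpr180.S, whose product is placed with this class by its name, had 66.0, 50.2 and 47.4 CPM in the input, 65.9, 32.6 and 0.321 CPM at T1, and 28.8, 47.7 and 123 CPM at T2. It was at the input level in T1 replicate 1, lower in replicate 2 and near 0, with 6 reads, in replicate 3. The mRNA of gpr151.L, an orphan receptor, had 3.20, 0.0135 and 0.383 CPM in the input, no read in any T1 library, and 0, 4.40 and 4.80 CPM at T2, and lay at least 36.4-fold below the input at T1 (adjusted p = 0.136 by edgeR). The untested gpr182.S had 0, 0.485 and 4.44 CPM in the input, no read at T1 and 1 read at T2. Of the pair taken in by prefix alone, tgfbrap1.S, whose product binds TGF-beta receptors from inside the cell, had 42.1, 74.5 and 59.0 CPM in the input, 44.5, 17.9 and 95.7 CPM at T1, and 28.15, 47.8 and 8.83 CPM at T2. The mRNA of fgfr1op2.L had 0.382, 1.11 and 0.903 CPM in the input, 0, 0.0285 and 0 CPM at T1, and 1.14, 2.66 and 0.0167 CPM at T2, which puts its summed reads at T1 82.6-fold below the input (95% exact interval 14.7 to 3280, from 1 read; adjusted p = 0.109 by edgeR).

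**Figure D3:**
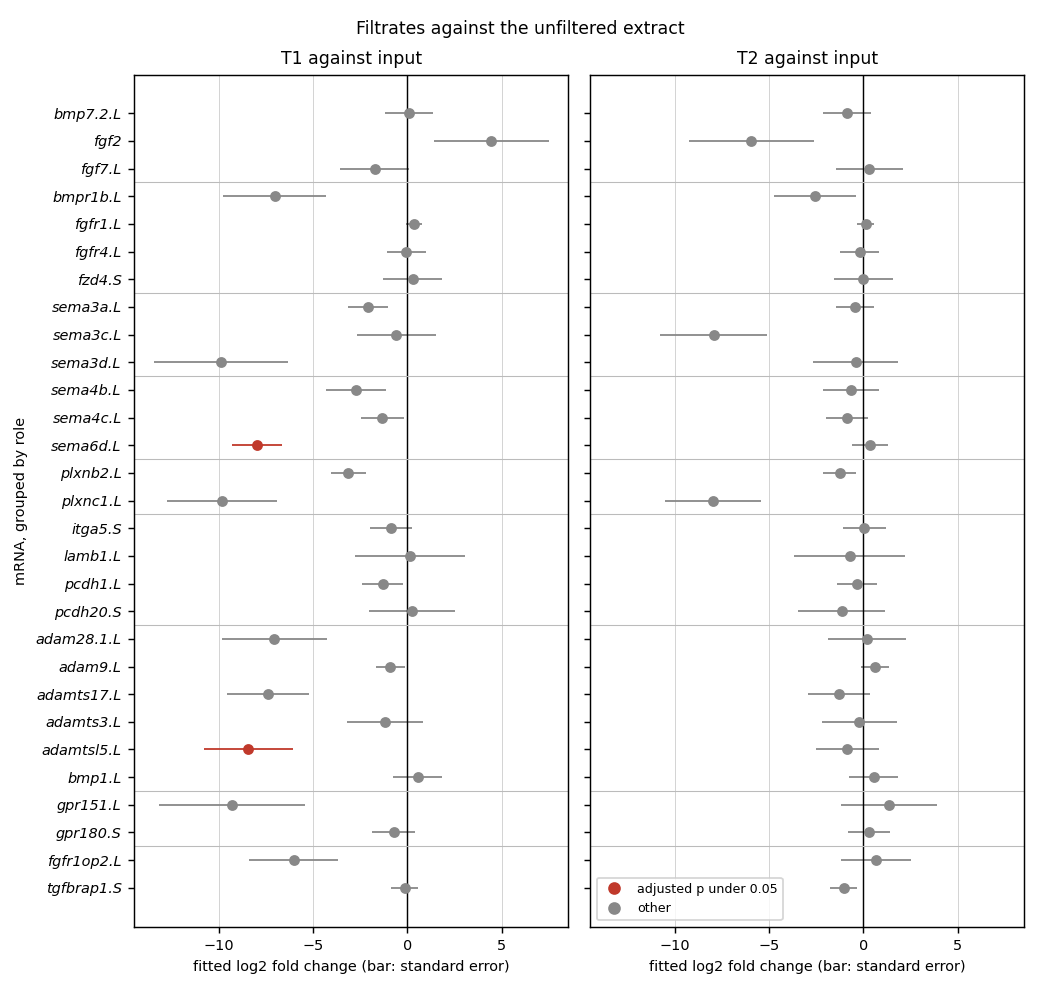
Fitted log2 fold changes with standard errors for the 29 tested mRNAs, T1 against input (left) and T2 against input (right), grouped by role. In the left panel sema6d.L and adamtsl5.L, in red, have an adjusted p under 0.05, and in the right panel no mRNA does; fitted values of mRNAs with 0 reads at T1 depend on edgeR's prior count.

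In the late filtrate fewer mRNAs were at low level than at T1, and none was called. Relative to the input 0 of 29 differed at T2 by edgeR's test (0% of all genes tested). By that test 2 had an unadjusted p under 0.05, plxnc1.L (0.0124) and sema3c.L (0.0173), against 7.79% of all genes. Neither had a T2 library at the filter's cutoff. Their entry rested on input libraries for plxnc1.L and on input and T1 libraries for sema3c.L, so these p-values are no support for a lower level at T2. DESeq2 also called 0, where 1.25% of all genes were called. With only the T2 and input libraries in the fit edgeR called 1, plxnb2.L, at a log2 fold change of -1.31 (adjusted p = 0.0315). In that fit 0.645% of all genes fell. The fitted change was below 0 for 18 of 29 (42.9% of all genes). The median log2 fold change was -0.42, against 0.14 for all genes, and it was -0.27 without input replicate 2. Every T2 library lay below every input library for 6 of 29 (12.8% of all genes): fgfr4.L, plxnb2.L, plxnc1.L, sema3c.L, sema4b.L and bmp7.2.L. These include both plexins and members of the ligand, receptor and semaphorin groups.

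Set directly against T1, which shares its libraries with the comparison above, T2 showed 0 of 29 differences at an adjusted p under 0.05 by edgeR (0.0993% of all genes, and 0.0893% in the higher direction) and 9 at an unadjusted p under 0.05 (22.7%). DESeq2's Wald test called 7, of which 6 were higher at T2 (sema6d.L, adamtsl5.L, adamts17.L, adam28.1.L, fgfr1op2.L and gpr151.L) and sema3c.L was lower. In that setting 17.5% of all genes were called. None of the 6 had a T1 library at the filter's cutoff, and sema3c.L had no T2 library there. Their entry thus rested on libraries other than the low ones. The mRNA of sema6d.L had a log2 fold change of 8.32 (standard error 1.33, adjusted p = 0.0581 by edgeR). Without T1 replicate 1, 2 or 3 its adjusted p was 0.0151, 0.0315 and 0.0303. Without T1 replicate 1 sema4b.L was also called, at a log2 fold change of 6.50 (adjusted p = 0.0182 by edgeR), where 7.83% of all genes were called higher. Every T2 library lay above every T1 library for 7 of 29 (13.2% of all genes): plxnb2.L, sema3a.L, sema4b.L, sema6d.L, adamtsl5.L, adamts17.L and adam9.L. In 0 of 29 did every T2 library lie below (7.73% of all genes). The fitted change was below 0 for 10 of 29 (46.6% of all genes). The median log2 fold change was 1.01, against 0.09 for all genes. Without T1 replicate 1 it was 2.02, against 0.27 for all genes.

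A delayed passage was described by mean levels per library size: a T1 mean at least 4-fold below that of the input, with a T2 mean at least 2-fold above that of T1. It was met by 12 of the 29 mRNAs (41.4%), against 21.6% of all genes tested. They were sema3a.L, sema3d.L, sema4b.L, sema6d.L, plxnb2.L, plxnc1.L, bmpr1b.L, adamtsl5.L, adamts17.L, adam28.1.L, gpr151.L and fgfr1op2.L. Thus 4 of 6 semaphorins and both plexins were among them, plxnc1.L by 1 read at T2, and none of the growth factor or the adhesion and matrix mRNAs. At a share of 21.6%, 0 of 3 growth factor and 0 of 4 adhesion and matrix mRNAs does not set those groups apart. The pattern was more common among scarce mRNAs in the set and in all genes alike. Of those with a mean input level under 10 CPM it was met by 8 of 15 (53.3%), against 39.9% of all such genes, and of those at or above 10 CPM by 4 of 14 (28.6%), against 8.65%. All 9 mRNAs with no T1 library at the filter's cutoff were among the 12. For plxnc1.L the rise at T2 is 1 read, and its T2 mean was 0.003 of its input mean, so it met the rule without a return. With no read at T1, as for plxnc1.L, sema3d.L and gpr151.L, any read at T2 meets the rule. The T2 reads were 1, 163 and 1 for bmpr1b.L and 0, 17 and 235 for sema3d.L, so the T2 mean of each rests mainly on 1 library. These counts thus do not establish a split between families. No test was made of these shares, since the genes are not independent and share the same libraries.

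The low levels at T1 differed from library to library. With a low level taken as under 1/8 of the mean input level, 13, 17 and 22 of the 29 mRNAs were low in T1 replicates 1, 2 and 3 (44.8%, 58.6% and 75.9%), against 27.4%, 33.1% and 49.0% of all genes tested. In the input libraries 1, 3 and 1 were low (3.45%, 10.3% and 3.45%), against 2.74%, 3.02% and 4.02% of all genes. At T2 8, 7 and 7 were low (27.6%, 24.1% and 24.1%), against 11.1%, 12.0% and 18.1% of all genes. Among the 14 mRNAs with a mean input of at least 10 CPM, 3, 5 and 9 were low in the T1 replicates (21.4%, 35.7% and 64.3%), against 7.08%, 12.7% and 30.3% of all such genes. At T2 0, 1 and 0 of those 14 were low, against 0.52%, 0.81% and 2.18% of all such genes. All 3 T1 libraries were low for 9 mRNAs (16.9% of all genes tested), of which sema6d.L alone had a mean input of at least 10 CPM. These are the 9 that entered the test with no T1 library at the filter's cutoff.

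T1 replicate 3 alone was low for 7 mRNAs (gpr180.S, itga5.S, fgfr4.L, sema3a.L, sema4c.L, fzd4.S and bmp1.L), and T1 replicate 2 alone for bmp7.2.L and sema3c.L. For 2 mRNAs, fgf2 and pcdh20.S, T1 replicate 3 was the only T1 library that was not low. For tgfbrap1.S, fgfr1.L and adam9.L no T1 library was low. T1 replicate 3, with the most mRNAs at low level, also had the highest share of unmapped reads (12.4%, 15.5% and 20.1% in replicates 1, 2 and 3) and of multimapping reads (4.06%, 6.17% and 6.76%) and the fewest reads on genes. The part of these in the low levels was not tested.

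**Figure D4:**
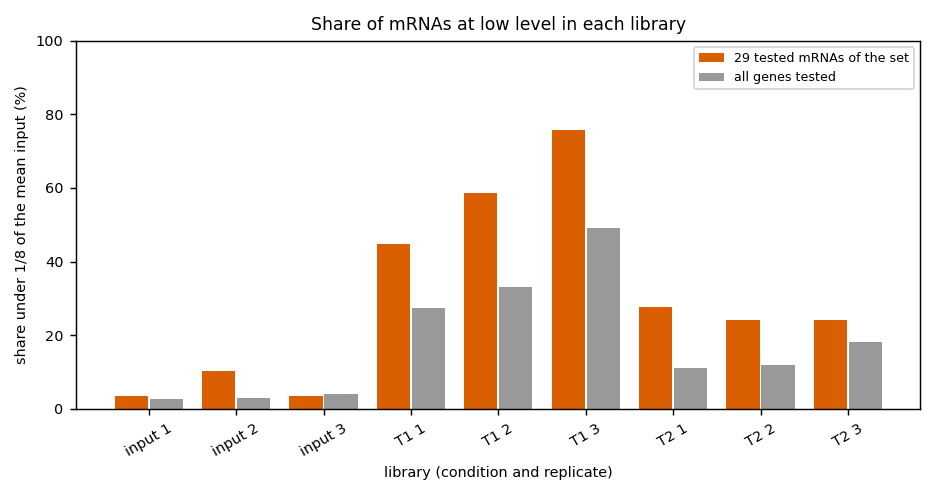
Share of mRNAs under 1/8 of their mean input level in each of the 9 libraries, for the 29 tested mRNAs of the set (orange) and for all 20148 genes tested (grey). The T1 bars of the set reach 44.8%, 58.6% and 75.9%, and those of all genes 27.4%, 33.1% and 49.0%.

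Summed over all 30 mRNAs, the level was 991 ± 58.2 CPM in the input, 510 ± 125 CPM at T1 and 696 ± 48.0 CPM at T2 (SD, n = 3 each). The sums ranged over 424 to 653 CPM at T1 and 653 to 748 CPM at T2, all below the 939 to 1054 CPM of the input. Within these sums plxnb2.L averaged 31.4 ± 34.2 CPM at T1 against 276 ± 37.0 CPM in the input (SD, n = 3 each).

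Other genes of the same signalling and adhesion pathways, secreted, at the cell surface or inside the cell, were followed as a list of 24, all tested. At T1 4 fell relative to the input and 0 rose, where 5.08% of all genes fell and 6.44% rose, and the median log2 fold change was -0.94, against -0.09 for all genes. At T2 0 differed from the input by edgeR's test and 2 had an unadjusted p under 0.05 (7.79% of all genes). Those that fell were tcf7l1.L, a transcription factor of Wnt signalling (-2.29, standard error 0.40, adjusted p = 0.00695 by edgeR), tjp1.S, a tight junction scaffold (-2.15, standard error 0.47, adjusted p = 0.0186 by edgeR), gdf9.L, an oocyte growth factor (-1.51, standard error 0.36, adjusted p = 0.0248 by edgeR) and ctnna1.L, alpha-catenin (-1.06, standard error 0.26, adjusted p = 0.0282 by edgeR). All 4 were below the input in each T1 library, and none was near 0: tcf7l1.L had 31.5, 37.5 and 16.8 CPM at T1, against 131, 142 and 146 CPM in the input. By signalling branch, the counts that fell were 1 of 7 for TGF-beta and BMP, 0 of 4 for FGF, 1 of 3 for Wnt, 2 of 6 for adhesion and 0 of 2 for semaphorin signalling.

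Among the rest of the list, celsr1.L, a cadherin of planar cell polarity, had 1 read in each T1 library (0.0275, 0.0285 and 0.0535 CPM), against 1.57, 3.75 and 2.44 CPM in the input (adjusted p = 0.0593 by edgeR). The mRNA of the protocadherin dchs1.S had 0, 0 and 0.107 CPM at T1, against 0.808, 1.81 and 0.138 CPM in the input, and cntn1.L had at most 1 read in any T1 library but was also near 0 in input replicates 2 and 3. Other genes were low or high in single T1 libraries. The inhibitor of FGF signalling spry1.L had 100, 151 and 1.02 CPM at T1, against 246, 210 and 133 CPM in the input, and the Wnt co-receptor lrp6.L had 28.2, 87.5 and 0.642 CPM at T1, against 184, 245 and 113 CPM in the input. Both were lowest in T1 replicate 3. In contrast smad3.L, a transducer of TGF-beta signals, was high in T1 replicate 3 alone, with 0.0275, 0.0285 and 46.9 CPM at T1, against 2.93, 4.57 and 3.33 CPM in the input. The inhibin-family gene inhbc.2.S was near 0 in replicate 2 of every condition (0.0809 CPM in the input, 0.171 CPM at T1 and 0.0648 CPM at T2) and between 4.19 and 34.2 CPM in the other libraries, the reverse of lamb1.L. A further 6 entries match the prefixes by the symbol of their human relative only (EPHA7, FGF14, COL25A1, PLXNA4, COL7A1 and ADAM10). Of these 5 were tested, and 0 differed in any comparison by edgeR's test (11.5% of all genes at T1). At T1 1 had an unadjusted p under 0.05 (32.4% of all genes). The median of their T1 log2 fold changes was -1.02, against -0.09 for all genes.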

How the data were processed

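The deposited table holds raw counts of reads per gene, which the authors made with Trim Galore and STAR's gene counting on the *X. laevis* v10.1 genome; STAR counts uniquely mapped reads only, and 26 of the 30 genes have a homeolog (the copy on the other subgenome) in RefSeq. Which of STAR's strand columns was deposited is not given in the sources used here. A second deposited table holds the authors' signal of counts divided by DESeq2 size factors, from which whole reads were recovered (100% of values whole). The recovered reads differed from the raw counts for 4527 genes, where this second table holds 25617. Symbols were joined by gene identifier, and positions came from RefSeq, in which all 30 genes were found. Each of 9 libraries was grouped by its title, 3 per condition.

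edgeR 4.0.16 (R 4.3.3) was fitted by its quasi-likelihood method to all 9 libraries with TMM normalization on the 20148 genes kept by its expression filter (minimum count 10, minimum total 15), with Benjamini-Hochberg adjustment over all of them at 0.05. Standard errors are the absolute log2 fold change over the square root of F. Ratios of summed reads are scaled to the total reads on genes of each condition. Exact intervals are at 95% and, like the floor of 3 reads, cover counting error only. With 3 against 3 libraries an exact permutation test cannot go below 0.1, so none was used. DESeq2 1.42.0, other scalings and filters, fits on the compared conditions, a replicate block and the omission of each library were tried. The edgeR test was also run on simulated counts with known changes, and its recovery of them is not given here. Members, lists and rules were chosen with earlier results of these data known. All 30 genes are named; values per library are given for those past the threshold, at or over 10 CPM in the input or without overlap between T1 and input, and also, chosen after their values were seen, for the remaining ones.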

Additional observations from a re-analysis of the deposited data

Results flagged for a closer look

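Reads outside the gene counts differed between conditions. Unmapped reads made up a median of 15.5% of all reads at T1 (12.4% to 20.1%), above every input library (7.23% to 7.71%), and 7.04% to 9.24% at T2. Multimapping reads made up a median of 6.17% at T1 (4.06% to 6.76%), above every input library (1.69% to 1.85%), and 1.98% to 2.85% at T2. Both values were singled out because these reads enter no gene comparison and exceed the level before filtration. What they hold was not analysed here. Reads assigned to no feature ran the other way, at 19.2% to 24.8% at T1, against 32.6% to 36.6% in the input.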

How the results depend on the processing

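The fall of sema6d.L at T1 kept its direction and its call in all 17 alternatives, and that of adamtsl5.L kept its direction in 17 and its call in 9. The medians of the set kept their sign in all alternatives. Those of all genes, near 0 in the main fit, did not. They were 0.07 at T1 with a mean of at least 1 CPM as the filter, and -0.04 for T2 against input with the replicate block. For T2 against T1 they were -0.004 with median-of-ratios factors, -0.008 with a mean of at least 1 CPM and -0.02 with DESeq2. At T1 the median of all genes also fell further below 0. It was -0.51 with at least 1 read as the filter, and -0.34 and -0.35 without T1 replicates 1 and 2. For T1 against input, 2 members and 2320 genes were called. The counts were 8 and 3592 with only the compared conditions, 6 and 5630 with DESeq2, and, leaving out each library, 1 to 4 and 457 to 4299 (median of members -2.61 to -0.99). For T2 against input, 0 and 0 became 1 and 209 with only the compared conditions, 0 and 251 with DESeq2 and 0 and 8 with at least 1 read as the filter. Leaving out each library gave 0 members and 0 to 35 genes (median -0.61 to -0.27). For T2 against T1, 0 members and 20 genes became 1 and 91 by library size, 0 and 3 with median-of-ratios factors, 1 and 80 with at least 1 read (median 1.26), 0 and 0 with only the compared conditions, 7 and 3518 with DESeq2, and 0 to 2 and 0 to 2175 leaving out each library (median 1.01 to 2.02). The cause was not tested. The paper counts 3 biologically independent samples and 9 experiments, so conditions shared extracts, but it does not tie extracts to replicate numbers. Correlations were taken over the tested genes on each library's deviation from the mean log2 level of its condition, not on the levels themselves. Such deviations sum to 0 within a condition, so the correlations of a comparison are not independent. Those of equal numbers were 0.003, 0.21 and 0.07 for T1 and input, and 0.22, 0.39 and -0.04 for T2 and input. They were 0.11, 0.11 and 0.09 for T2 and T1, where each library correlated best with its own number. Against the input, T1 replicate 1 correlated best with input replicate 3 (0.11), and T2 replicate 3 with input replicate 1 (0.22). The remaining filtrate libraries correlated best with the input of their own number. The correlations thus partly followed the numbers. The main fit treats the 9 libraries as independent and does not pair by number. With the replicate block, 1 member and 1499 genes were called at T1 (median of members -2.37, of all genes -0.72). The counts were 0 and 1 at T2 against input (medians -0.73 and -0.04). They were 0 and 0 between T2 and T1 (medians 1.81 and 0.45). The medians of all genes thus moved in the same direction as those of the set. Library size in place of TMM moved the median of all genes at T1 to -0.25, against -0.09, and 25 of 29 members were then fitted lower. The delayed-passage count of 12 members ranged over 11 to 16 in all its alternatives, and the share of all genes over 19.6% to 31.6%. The count of 16 came with a T1 mean at least 2-fold lower as the rule (28.2% of all genes) and without T1 replicate 1 (31.6%). At T1 a level under 1 read, 0.0275 to 0.0535 CPM, could not be told from 0, and the lower T1 depth makes scarce mRNAs the least certain.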
